A study of Mus musculus with 6 samples.

Results

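Astrocytes are described here through 10 genes that mark their identity or their reactive state: Gfap, Vim, Aqp4, Slc1a2, Slc1a3, Aldh1l1, S100b, Glul, Sox9 and Aldoc. They were taken by symbol from 6 gene expression tables that each list 27378 genes, and all 10 were found in every table. The tables come from RNA sequencing of whole brains of male C57BL/6J mice, wild type by label, a standard inbred laboratory strain. Control mice (3 libraries) received sterile distilled water through the nose and PS mice (3 libraries) received polystyrene nanoplastics by the same route, both over 28 days. Age, dose and particle size are not given in the sources used here. The tissue is labelled as holding all brain cell types, so a gene that several cell types express is measured as their sum, and fewer cells of a type cannot be told apart from less RNA per cell. The labels do not say that each library came from a separate animal, so p-values measure the spread between these libraries, which may be partly technical.

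Astrocytes take up glutamate from synapses, convert it to glutamine, move water and potassium at their endfeet on blood vessels, and supply neurons with metabolites. After injury or inflammation they can become reactive, a state in which intermediate filament genes, above all Gfap, are known to rise, while genes of normal function may be kept or lost. None of the 10 genes is made by astrocytes alone in whole brain: vessel and ependymal cells also make Vim, oligodendrocytes also make S100b and Glul, and ependymal cells also make Slc1a3 and Sox9.

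RefSeq promoter sequences (build GRCm38.p6) were matched by symbol for 8 of the 10 genes, not for Aqp4 or Sox9. Of these, 4 are shown because the results below turn on them: the filament pair Gfap and Vim, Aldh1l1 as the gene whose groups did not overlap, and Glul as the most abundant gene and 1 of the 2 with a lower mean in PS. Each run is the 250 bases before the annotated start, 5′ to 3′ on the strand of the gene. Capitals mark matches, on either strand, to 1 of 6 motifs chosen after the expression values were known: the TATA box (TATAAA), the STAT palindrome (TTCNNNGAA), AP-1 (TGANTCA), an NFI half-site (TTGGCA), a SOX motif (ACAAAG) and the CCAAT box (CCAAT). The NFI half-site and the CCAAT box can overlap. Gfap lies at chr11:102897201-102897450 on the minus strand, Vim at chr2:13574061-13574310 on the plus strand, Aldh1l1 at chr6:90550543-90550792 on the plus strand and Glul at chr1:153899679-153899928 on the plus strand.
Gfap: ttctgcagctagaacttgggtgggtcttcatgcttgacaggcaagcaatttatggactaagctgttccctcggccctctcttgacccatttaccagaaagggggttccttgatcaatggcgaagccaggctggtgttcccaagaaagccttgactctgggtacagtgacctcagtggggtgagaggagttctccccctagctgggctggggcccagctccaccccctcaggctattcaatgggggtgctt
Vim: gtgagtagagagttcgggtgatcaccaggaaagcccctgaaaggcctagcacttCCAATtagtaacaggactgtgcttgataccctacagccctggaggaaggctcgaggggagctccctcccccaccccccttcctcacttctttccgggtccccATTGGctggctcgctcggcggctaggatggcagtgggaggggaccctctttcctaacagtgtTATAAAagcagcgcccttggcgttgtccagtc
Aldh1l1: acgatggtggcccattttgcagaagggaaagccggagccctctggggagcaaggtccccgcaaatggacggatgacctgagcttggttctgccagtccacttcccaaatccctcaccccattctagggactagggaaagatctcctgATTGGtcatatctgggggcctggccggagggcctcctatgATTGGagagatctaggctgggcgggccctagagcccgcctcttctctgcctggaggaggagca
Glul: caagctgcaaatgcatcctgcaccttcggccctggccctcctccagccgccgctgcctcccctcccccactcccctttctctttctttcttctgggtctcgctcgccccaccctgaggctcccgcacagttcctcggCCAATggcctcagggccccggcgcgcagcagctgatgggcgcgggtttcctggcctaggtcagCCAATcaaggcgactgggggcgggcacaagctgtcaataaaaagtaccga

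The printed Gfap window holds none of the 6 motifs, which says only that these letters are not in these bases. The Vim window holds a TATAAA at 32 to 27 bases before the start, and 2 CCAAT boxes. A TATAAA in this window is found in 12.4% of 32851 RefSeq promoter entries, and a CCAAT box in 33.9%. The Aldh1l1 and Glul windows each hold 2 CCAAT boxes and none of the other motifs. A STAT palindrome, found in 7.02% of all entries, occurs once before Slc1a3 and 2 times before 1 of the 2 annotated starts of Aldoc. GC content was 55.6% for Gfap, 58.4% for Vim, 59.6% for Aldh1l1 and 64.8% for Glul, against a median of 52.4% over all entries.

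Levels are given as FPKM, read fragments scaled to gene length and sequencing depth, so that genes of different length can be set side by side. Over the 6 libraries Glul was the most abundant of the 10, with a mean of 853.6 FPKM ± 63.4 (SD, n = 6), and ranked 18 among 12229 genes tested. Aldoc followed at 477.3 ± 45.0, then Slc1a2 at 143.8 ± 10.1 and S100b at 136.5 ± 20.1, whose ranges overlapped and which exchanged places in 3 of 6 libraries. Slc1a3 stood at 86.8 ± 4.33, Gfap at 39.7 ± 3.11, Vim at 33.9 ± 1.70, Aqp4 at 26.6 ± 1.77, Aldh1l1 at 19.4 ± 1.96 and Sox9, a transcription factor, at 5.87 ± 0.611. Gfap and Vim overlapped in range, but Gfap was above Vim in each of 6 libraries. All other neighbours in this order had ranges that did not overlap. The order rests on the gene lengths the authors used, which could be recovered from the steps of the values: 7420 bases for Gfap, against 2648 bases for its principal transcript in GENCODE M21. Per kilobase of principal transcript the mean level of Gfap would be 111.2 instead of 39.7, still sixth of 10, and the only change of order would be Aqp4 (31.6) above Vim (28.3).

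**Figure D1:**
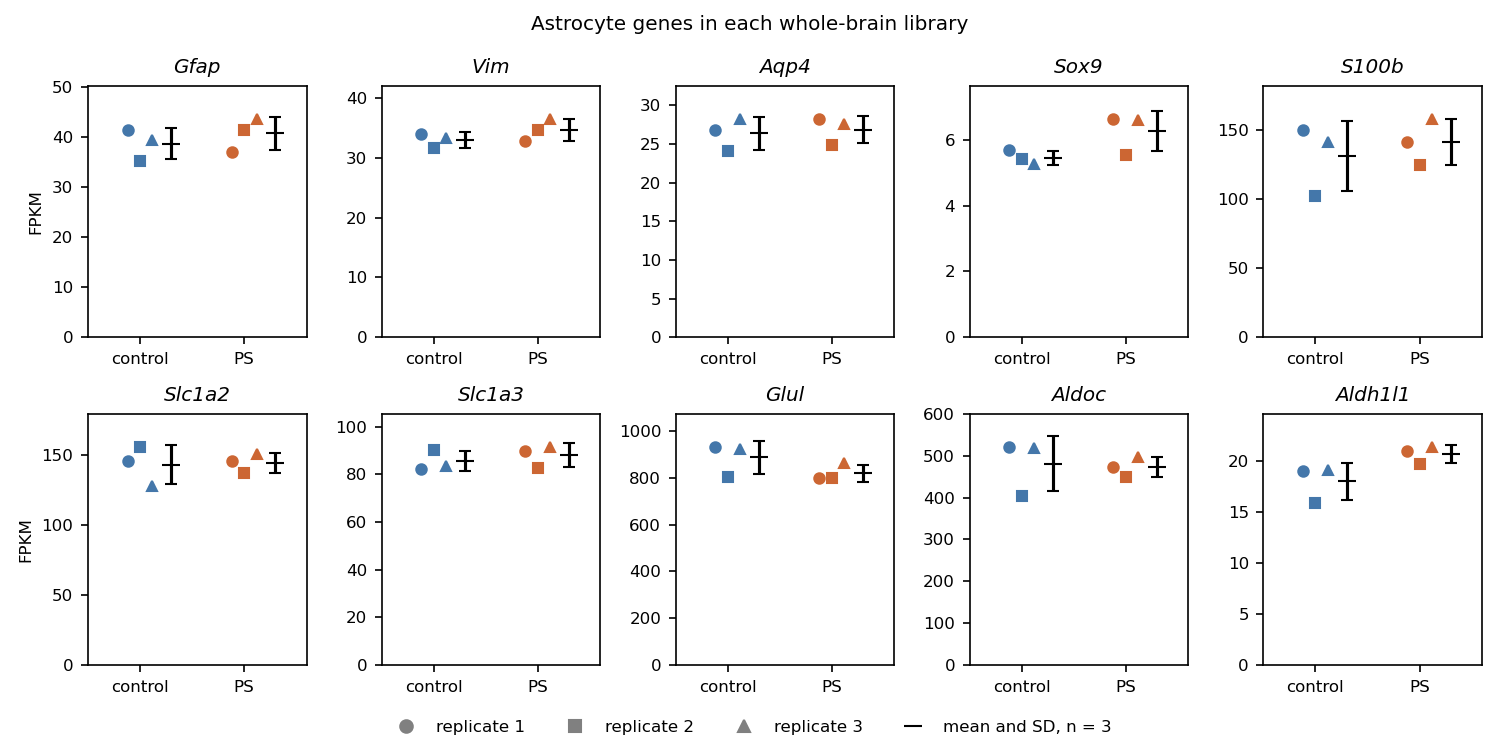
FPKM of the 10 astrocyte genes in each library, control in blue and PS in orange, with the replicate number shown by marker shape and the group mean and SD (n = 3) as black bars; each axis starts at 0. Only in the Aldh1l1 panel do the 3 PS points (19.7 to 21.5) all lie above the 3 control points (15.96 to 19.1).

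PS and control were compared on log2(FPKM + 1) by limma, with p-values adjusted over all 12229 genes tested (mean of at least 1 FPKM) and a call at an adjusted p under 0.05. A fold change on this scale understates the change of low genes. With 0.1 added instead of 1, the log2 fold change of Sox9 went from 0.168 to 0.193. That of Lcn2, described below, went from -1.86 to -2.25. None of the 10 genes was called higher or lower, where 0.164% of all genes tested were called, all of them lower in PS. With weights for each library the calls over all genes were split, 297 higher and 335 lower, and none was among the 10. Limma-voom on recovered reads called none of the 10 either. A fit blocked on replicate number called 48 genes of the whole table instead of 20, and again none of the 10. At an unadjusted p under 0.05 there was 1 of 10 (Aldh1l1), against 5.94% of all genes. Groups did not overlap in 1 of 10, higher in PS, against 11.3% of all genes in either direction and 4.93% higher in PS. By a rule of a fold of at least 1.5 together with an unadjusted p under 0.05, none of the 10 passed, against 0.36% of all genes. That share is 44 genes, and the count was 82 with 0.1 added instead of 1 and 91 by limma-voom. Log2 fold changes were positive for 8 and negative for 2, with a median of 0.06 beside 0.003 for all genes, of which 51.4% were positive. All 10 intervals of 95% lay within a 1.5-fold change in either direction. The highest upper bound was a change of 35.6% (S100b) and the lowest lower bound a change of -18.25% (Glul).

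**Figure D2:**
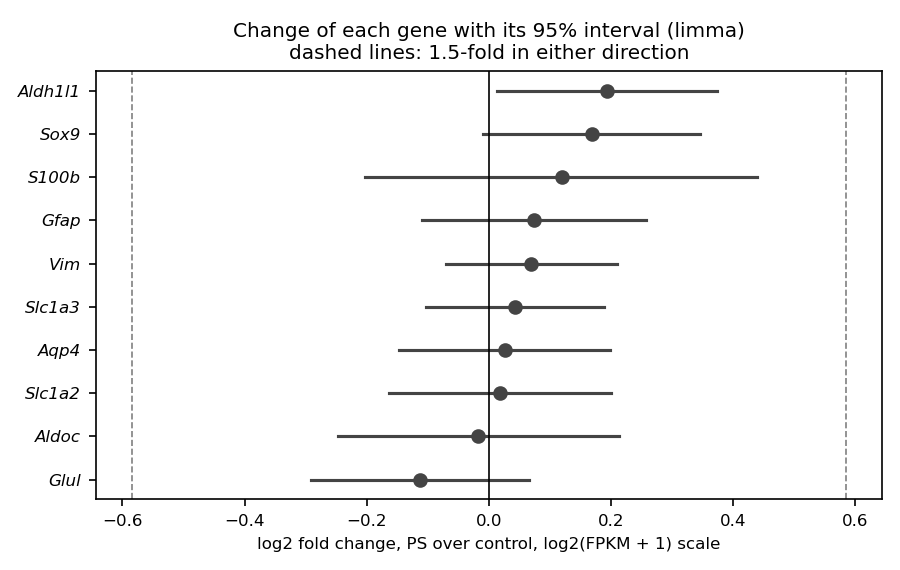
Log2 fold change of PS over control for each of the 10 genes (points) with its 95% interval from limma (lines), on the log2(FPKM + 1) scale; the dashed lines are at 1.5-fold. Only the interval of Aldh1l1 (0.01 to 0.37) lies wholly on one side of 0, and no interval reaches a dashed line.

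Neither filament gene differed between groups beyond the spread of its libraries. Gfap, which encodes glial fibrillary acidic protein, was at 41.3, 35.2 and 39.4 FPKM in control replicates 1, 2 and 3 and at 37.1, 41.5 and 43.6 in PS. The lowest value was a control and the highest a PS library, and the groups overlapped. Its log2 fold change was 0.07 (SE 0.081, limma adjusted p = 0.978), with a 95% interval from -7.33% to 19.5%. Vim encodes vimentin, a filament protein of reactive and immature astrocytes, and its values were 34.1, 31.6 and 33.3 in controls and 32.8, 34.7 and 36.6 in PS. It was the second most even of the 10, with a coefficient of variation over the 6 libraries of 5.04%, and its interval ran from -4.83% to 15.6% (limma adjusted p = 0.975). Of 8 filament partners (Nes, Synm, lamins and others) 7 were tested and none was called, with a median log2 fold change of 0.002. Lmnb2, a nuclear lamin, was at 5.70 ± 0.203 FPKM in controls and 5.01 ± 0.215 in PS (SD, n = 3), without overlap (limma adjusted p = 0.819). Lmnb1, another lamin, was at 2.63 ± 0.0756 and 2.99 ± 0.273, also without overlap but higher in PS (adjusted p = 0.891). Synm, which encodes a filament protein that pairs with vimentin, was at 7.29 ± 0.425 and 7.74 ± 0.823.

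Aqp4, the water channel of astrocyte endfeet, was at 26.8, 24.1 and 28.3 FPKM in controls and 28.2, 24.9 and 27.5 in PS. Replicate 2 was the lowest of each group, and the groups overlapped almost wholly (log2 fold change 0.03, SE 0.076, limma adjusted p = 0.994). The dystroglycan complex anchors this channel to the basal lamina of vessels. All 8 of its genes chosen here were tested, 4 with positive and 4 with negative fold changes and none called (median of 0 to 2 decimals). Lamb2, a laminin chain of that basal lamina, was at 5.13 ± 0.409 in controls and 5.87 ± 0.336 in PS (adjusted p = 0.842). Lama2, another laminin chain, stood at 1.16 ± 0.0392 and 1.35 ± 0.0536 without overlap (adjusted p = 0.902), and Dmd, which encodes dystrophin, at 2.77 ± 0.432 and 2.46 ± 0.196 (adjusted p = 0.967).

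Glutamate handling was described by both astrocyte transporters and by glutamine synthetase. Slc1a2, which encodes the main forebrain glutamate transporter GLT-1, was at 145.4, 156.0 and 127.9 FPKM in controls and 145.7, 136.9 and 151.0 in PS. The highest and the lowest value were both control libraries (log2 fold change 0.02, SE 0.080, limma adjusted p = 0.996). Its sign turned to -0.06 without control replicate 3. Slc1a3, which encodes GLAST, the transporter most abundant in Bergmann glia of the cerebellum, was at 82.4, 90.3 and 83.7 in controls and 90.0, 82.6 and 91.7 in PS. It was the most even of the 10 genes, with a coefficient of variation of 4.99%, and its interval ran from -6.88% to 14.0% (adjusted p = 0.98). The ratio of Slc1a2 to Slc1a3 was 1.76, 1.73 and 1.53 in controls and 1.62, 1.66 and 1.65 in PS, so the PS values lay inside the control range.

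Glul, which encodes glutamine synthetase, was at 934.3, 804.8 and 923.9 FPKM in controls and 797.9, 798.1 and 862.5 in PS. The 2 lowest values were PS libraries and the 2 highest were controls, with control replicate 2 among the PS values. The log2 fold change of Glul was -0.11 (SE 0.079, 95% interval -0.29 to 0.07, limma unadjusted p = 0.185, adjusted p = 0.945). Without control replicate 2 it was -0.18 (limma unadjusted p = 0.0198, adjusted p = 0.703), and without control replicate 1 it was -0.07 (adjusted p = 0.995). With sample weights it was -0.17 (limma unadjusted p = 0.00996, adjusted p = 0.0875), which was not a call. Among 11 other genes of the glutamate and glutamine cycle, all tested, 7 had positive and 4 negative fold changes and none was called (median 0.04). Slc38a2, a carrier of neutral amino acids including glutamine, was at 61.7 ± 10.7 in controls and 50.4 ± 6.46 in PS (adjusted p = 0.845). Slc38a3, the glutamine exporter of astrocytes, was at 18.8 ± 1.68 and 20.7 ± 0.474 (adjusted p = 0.879), and the cystine-glutamate exchanger Slc7a11 at 3.71 ± 0.597 and 4.29 ± 0.234 (adjusted p = 0.899).

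Aldh1l1, a folate enzyme widely used as a pan-astrocyte marker, was at 19.1, 15.96 and 19.1 FPKM in controls and 21.1, 19.7 and 21.5 in PS. Every PS value was above every control value, by a narrow margin between PS replicate 2 and the upper controls. The log2 fold change was 0.19 (SE 0.079, 95% interval 0.01 to 0.37, unadjusted p = 0.0374, limma adjusted p = 0.817), so it did not pass. Without control replicate 2, its lowest value, the log2 fold change was 0.11 (adjusted p = 0.848). Of 8 other genes of folate one-carbon metabolism only 4 were expressed enough to be tested, and none was called (median -0.03). Mthfd1, which interconverts folate forms, was at 10.5 ± 0.559 in controls and 10.1 ± 0.752 in PS, and Mthfs at 1.84 ± 0.159 and 2.004 ± 0.245, with adjusted p of 0.978 to 0.979.

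Aldoc, the brain form of the glycolytic enzyme aldolase, was at 522.3, 404.7 and 517.7 FPKM in controls and 473.5, 449.1 and 496.8 in PS. All 3 PS values lay inside the control range (log2 fold change -0.02, SE 0.101, limma adjusted p = 0.996). The list of glycogen, aldolase and lactate genes had 9 of 10 members tested, with 6 positive and 3 negative fold changes and none called (median 0.03). Ppp1r3c, a scaffold that promotes glycogen synthesis in astrocytes, was at 21.8, 18.4 and 18.1 in controls and 15.7, 14.8 and 16.8 in PS, without overlap (log2 fold change -0.28, adjusted p = 0.542). Ldha, a lactate dehydrogenase subunit, was at 45.5 ± 2.39 and 41.1 ± 2.84 (adjusted p = 0.85), and Pygm, a glycogen phosphorylase, at 22.4 ± 4.21 and 25.6 ± 1.58 (adjusted p = 0.918).

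S100b, a calcium-binding protein of astrocytes and oligodendrocytes, varied the most of the 10, with a coefficient of variation of 14.8%. It was at 150.3, 102.4 and 141.5 FPKM in controls and 141.7, 124.6 and 158.4 in PS, with control replicate 2 far below the others. Its log2 fold change was 0.12 (SE 0.141, limma adjusted p = 0.979) and turned to -0.05 without that library. The summed level of 8 mature oligodendrocyte markers was also lowest in control replicate 2, at 1251 FPKM, against 1639 and 1789 in the other controls and 1708 to 1915 in PS. All 8 of those markers were detected, and their part in the S100b values was not tested. Among 5 tested members of the other S100 genes, 4 had positive fold changes and none was called (median 0.10). S100a16 was at 25.0 ± 2.82 in controls and 28.8 ± 1.94 in PS (adjusted p = 0.838), S100a13 at 15.3 ± 1.32 and 17.4 ± 2.21, and S100a10 at 39.7 ± 3.27 and 34.2 ± 3.19 (adjusted p = 0.784). Ager, a receptor for S100B protein, averaged 0.118 FPKM in controls and 0.156 in PS, on 5 to 17 reads, below the filter.

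Sox9, a transcription factor that specifies astrocytes, was at 5.69, 5.42 and 5.26 FPKM in controls and 6.65, 5.56 and 6.62 in PS. PS replicates 1 and 3 stood above all controls and PS replicate 2 among them (log2 fold change 0.17, SE 0.079, unadjusted p = 0.061, limma adjusted p = 0.844). The summed level of 7 cerebellar markers was 223.8, 222.0 and 246.8 FPKM in controls and 314.6, 215.2 and 253.4 in PS. Within PS it followed the order of Sox9, but in controls it was highest in replicate 3, where Sox9 was lowest, and its part in the Sox9 values was not tested. Of 11 other gliogenic transcription factors, all tested, 9 had positive fold changes and none was called (median 0.03). Id3, an inhibitor of DNA binding by helix-loop-helix factors, was at 26.0, 25.2 and 26.9 in controls and 29.7, 37.0 and 30.3 in PS, without overlap (log2 fold change 0.30, adjusted p = 0.538). Hes5, a Notch target, was at 2.06 ± 0.366 and 2.63 ± 0.440 (adjusted p = 0.845), and Nfix, which takes part in glial differentiation, at 23.1 ± 1.70 and 25.1 ± 1.74 (adjusted p = 0.926).

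Of 11 genes that are raised in reactive astrocytes of several kinds (pan-reactive genes) 5 were tested, 2 with positive and 3 with negative fold changes (median -0.09), and Lcn2, a lipocalin that binds iron carriers and is secreted in the acute-phase response, was the 1 called. Lcn2 fell in PS, from 8.92, 11.0 and 10.7 FPKM in control to 3.02, 1.80 and 1.58, with no overlap (log2 fold change -1.86, SE 0.155, limma adjusted p = 0.00937). Without PS replicate 2 limma called no gene of the whole table (237 higher and 300 lower at an unadjusted p under 0.05), and Lcn2 stood at -1.79 (adjusted p = 0.0685). With no filter on low values its adjusted p was 0.21. Lcn2 is also made by endothelium and blood-borne cells. The summed level of 5 red-cell genes was 127.4 to 196.4 FPKM in controls and 56.7 to 99.5 in PS, and of 7 endothelial markers 69.6 to 80.8 in controls and 64.2 to 70.9 in PS, and the part of either in the Lcn2 values was not tested. Cp, which encodes ceruloplasmin, was at 4.53 ± 0.505 in controls and 3.78 ± 0.268 in PS without overlap (adjusted p = 0.817). Serpina3n, a protease inhibitor that marks reactive astrocytes and oligodendrocytes, was at 11.9 ± 1.76 and 11.0 ± 0.926 (adjusted p = 0.979). All 6 pan-reactive genes below the filter had a lower mean in PS, so that 9 of 11 were lower and 2 higher, with no test of the group. Gfap and Vim, which also rise in reactive astrocytes, are left out of this list because they are among the 10 members. Both had positive log2 fold changes (0.074 and 0.069), and neither was called. Of the 6 below the filter, Osmr, the oncostatin M receptor, averaged 1.07 and 0.711 on 139 to 283 reads, without overlap. Steap4, a metalloreductase, averaged 0.247 and 0.164 on 16 to 37 reads, also without overlap. Osmr and Steap4 were singled out after their values were seen. No share of non-overlap or of lower means was computed over all genes below the filter. Other lists were mixed below the filter, with 1 lower and 3 higher in the folate list. The A1, A2 and gp130 lists described next had 2 lower and 1 higher, 4 and 3, and 2 and 3.

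Of 12 genes linked to the A1 (inflammation-induced) astrocyte state 9 were tested, 7 with positive fold changes, and none was called (median 0.05). The complement inhibitor gene Serping1 was at 6.33 ± 0.913 FPKM in controls and 8.01 ± 1.06 in PS (log2 fold change 0.30, limma adjusted p = 0.738). The glucocorticoid-induced chaperone gene Fkbp5 was at 32.7 ± 2.45 and 27.0 ± 1.10 without overlap (log2 fold change -0.27, adjusted p = 0.417), and H2-D1, an MHC class I gene, at 33.5 ± 3.92 and 37.3 ± 2.72 (adjusted p = 0.906). C3, the complement gene most used to mark this state, averaged 0.299 and 0.443, under the filter. Of 12 genes linked to the A2 (ischemia-induced) state 5 were tested, 4 of them with negative fold changes, and none was called (median -0.16). Ptgs2, which encodes a prostaglandin-forming cyclooxygenase that neurons also make, was at 2.73 ± 0.576 and 1.71 ± 0.135 without overlap (adjusted p = 0.375), and the lipopolysaccharide co-receptor gene Cd14 at 2.02 ± 0.181 and 1.71 ± 0.283 (adjusted p = 0.916).

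Cytokines acting through gp130 and STAT3 are known to drive Gfap. Of 12 genes of this axis 7 were tested and none was called (median -0.06). Cntfr, a receptor for ciliary neurotrophic factor, was at 16.5 ± 1.06 FPKM in controls and 18.3 ± 0.857 in PS without overlap (log2 fold change 0.15, limma adjusted p = 0.842). Lifr, another cytokine receptor, was at 5.12 ± 0.131 and 4.74 ± 0.221 without overlap (adjusted p = 0.945), and Il6ra at 1.59 ± 0.258 and 1.32 ± 0.189. Socs3, a feedback inhibitor induced by STAT3, averaged 0.853 in controls and 0.666 in PS, and the ligand gene Il6 had 0 or 1 reads per library, so neither was tested.

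**Figure D3:**
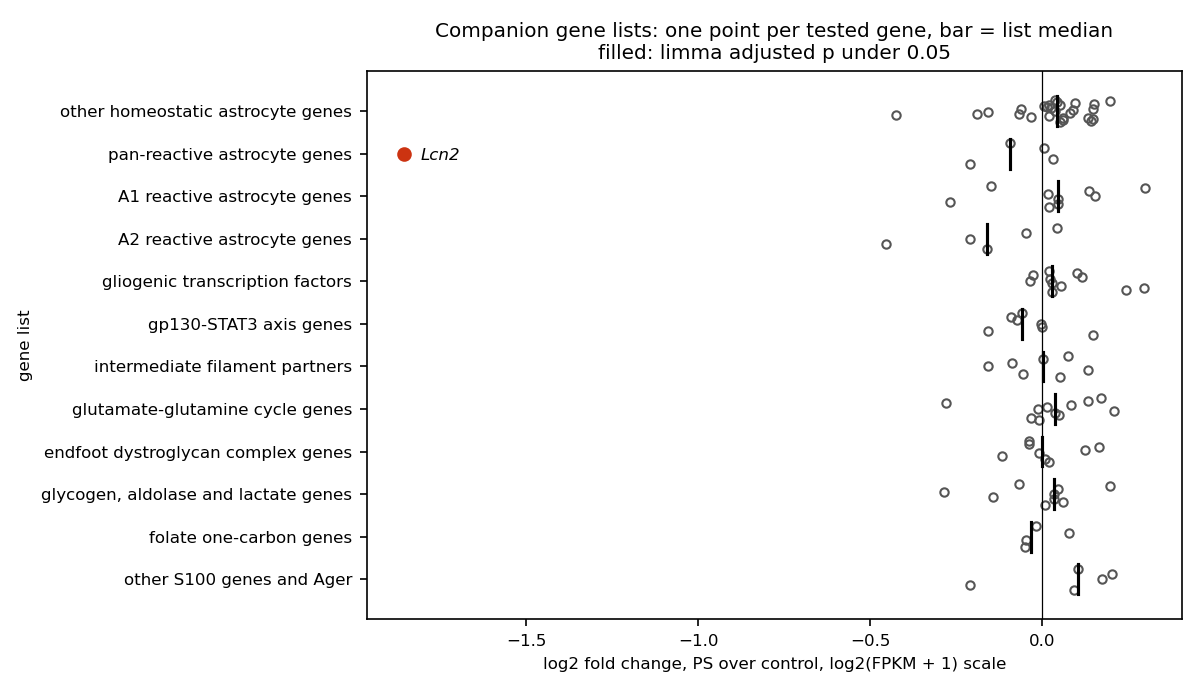
Log2 fold change of PS over control for every tested gene of 12 companion lists (1 point per gene, lists as rows, black bar at the list median), on the log2(FPKM + 1) scale. The filled point, Lcn2 at -1.86, is the only gene past an adjusted p of 0.05, and the list medians lie between -0.16 and 0.10.

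The other genes of normal astrocyte function were examined next. All 27 of this list were tested, 21 with positive and 6 with negative fold changes, and none was called (median 0.04, or -0.03 without control replicate 2 and 0.09 without control replicate 3). Dio2, which activates thyroid hormone in astrocytes, was at 15.2, 14.5 and 11.2 FPKM in controls and 9.69, 8.87 and 11.1 in PS, without overlap and with the lowest adjusted p of the list (log2 fold change -0.42, limma adjusted p = 0.486). Without control replicate 3 it was called (log2 fold change -0.55, adjusted p = 0.0497). F3, which encodes tissue factor, was at 32.5 ± 2.003 and 28.4 ± 1.30 without overlap (adjusted p = 0.709). Over the 12 companion lists, which hold 134 genes of which 107 were tested, 68 had positive fold changes and the median was 0.02. Groups did not overlap for 15, where 11.3% of all genes tested did not, and 1 was called, against 0.164% of all genes.

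Libraries of 1 group differed from each other in these genes. Control replicate 2 was the lowest of the 6 libraries for 6 of the 10 genes and below the mean of the gene for 8, the exceptions being Slc1a2 and Slc1a3. PS replicate 3 was above the mean for all 10 and the highest for 5. The mean deviation of the 10 genes from their own means on the log2 scale was 0.04, -0.13 and 0.001 in controls and 0.03, -0.05 and 0.11 in PS, so the groups overlapped. S100b followed the mean of the other 9 genes most closely (Pearson r = 0.955 over 6 libraries) and Slc1a2 least (r = -0.207), as a description only. Batches are not given in the labels used here. Control replicate 2 also stood apart on the first principal component of all tested genes, at 17.5 against -8.21 to 2.93 in the other 5 libraries. It had the highest summed level of 6 telencephalic markers, 92.3 FPKM against 69.7 to 81.8 in the other libraries, and the lowest of 8 ependymal markers, 12.6 against 20.04 to 24.9. The part of these markers in the astrocyte values was not tested.

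**Figure D4:**
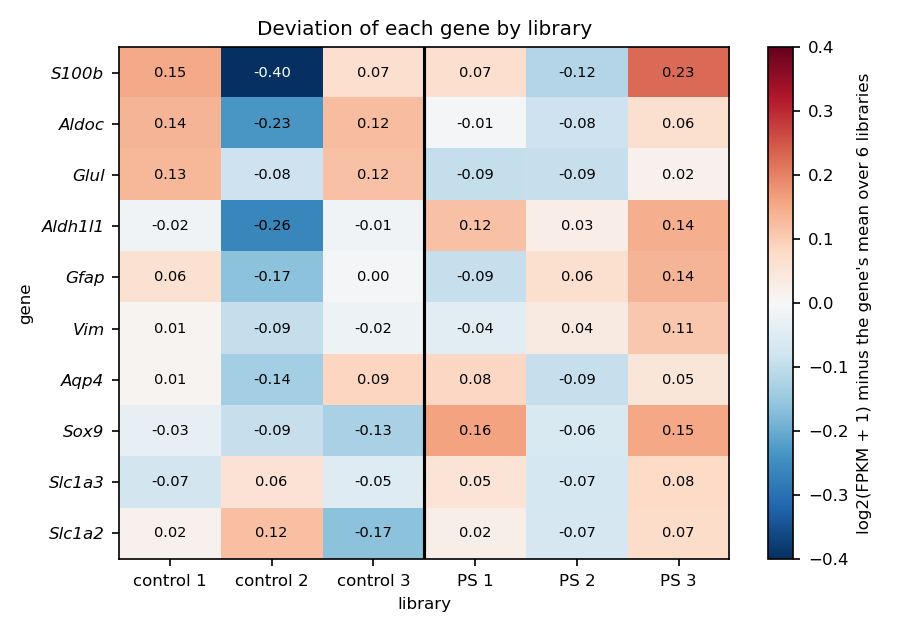
Deviation of log2(FPKM + 1) from the mean of each gene over the 6 libraries, with genes as rows, libraries as columns and a line between control and PS; red is above and blue below the mean. Control replicate 2 is the bluest column, down to -0.40 for S100b, and PS replicate 3 has no gene below its mean.

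The balance between members was examined within libraries, where a rise or fall shared equally by the genes compared would cancel. A change in other cells that make some of these genes, such as oligodendrocytes for Glul, would not cancel, and its part was not tested. The mean log2 level of Gfap and Vim minus that of the other 8, expressed relative to its control mean, was 0.002, 0.006 and -0.009 in controls and -0.11, 0.13 and 0.03 in PS, so PS libraries lay on both sides of control. The ratio of Gfap to Aldh1l1 was 2.16, 2.20 and 2.06 in controls and 1.76, 2.10 and 2.03 in PS. The ratio of Glul to Aldh1l1 was 48.9, 50.4 and 48.3 in controls and 37.9, 40.5 and 40.2 in PS. Control replicate 2, low for both genes, fell in with the other controls on this ratio. The ratio of these 2 genes was singled out after its values were seen, from 45 possible pairs of the 10 genes, and it received no test. Taken as Aldh1l1 to Glul, it had the widest gap between groups of all 45, relative to its range over the 6 libraries. A clear separation is therefore what it was picked for. Of the 45 pairs 9 (20%) had ratios that did not overlap between groups, 6 of them with Glul and 4 with Aldh1l1. The pairs share genes, and no such share was computed for pairs of other genes, so these counts have no background to be read against.

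**Figure D5:**
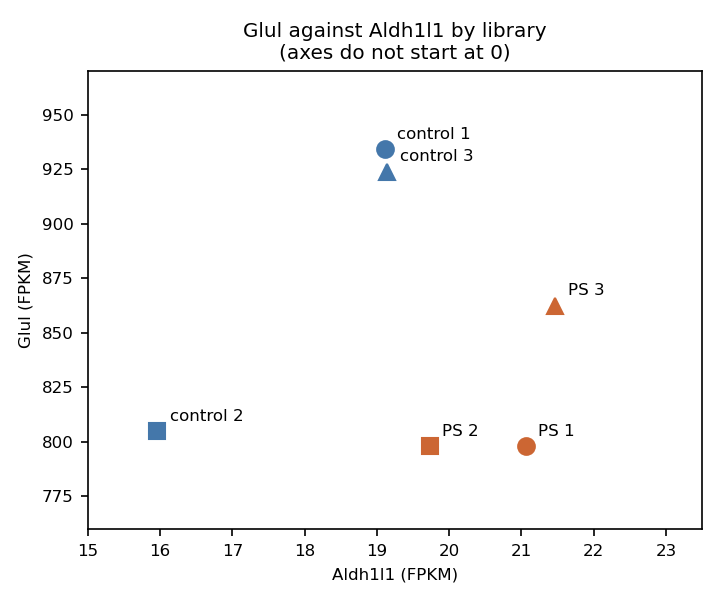
Glul (vertical axis, FPKM) against Aldh1l1 (horizontal axis, FPKM) in the 6 libraries, control in blue and PS in orange, marker shape giving the replicate; neither axis starts at 0. The 3 PS libraries lie to the lower right, with ratios of 37.9 to 40.5 against 48.3 to 50.4 in control. This pair was picked from 45 after the values were seen, as the most separated.

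Among 7856 other genes with a mean of at least 5 FPKM, those whose profiles over the 6 libraries were among the most like the mean of the 10 astrocyte genes included Agt, Tprgl, Ppp1r14b and S100a1, with Pearson r between 0.980 and 0.986. Agt, angiotensinogen, is itself an astrocyte gene of the companion lists and stood at 65.2, 45.2 and 61.0 FPKM in controls and 63.4, 54.9 and 69.9 in PS. With 6 libraries, 1.08% of the genes compared reached an r over 0.9, so this likeness is a description only. Agt, Tprgl, Ppp1r14b and S100a1 each had an adjusted p of at least 0.97 between groups.

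The reads behind the values numbered 39239183 to 40335590 per library, and the 10 genes rested on 864 (Sox9) to 104099 (Glul) reads each. Counting error alone would give a coefficient of variation of 0.324% for Glul and 3.21% for Sox9, against 7.43% and 10.4% measured over the 6 libraries. For all 10 genes the spread between libraries was larger than the counting error.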

How the data were processed

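Each library has its own deposited table of FPKM, the values that the authors scaled to gene length and depth. The submitters' processing notes list the build GRCm39 and the tools fastp, HISAT2, HTSeq and R 3.2.0, but no order or settings. Whether counting used the strand is not stated, so reads of overlapping or antisense genes cannot be told apart.

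All 6 libraries were used, grouped by title. Values were taken as log2(FPKM + 1) for 12229 genes with a mean of at least 1 FPKM (15149 removed) and compared with limma 3.58.1 in R 4.3.3 (group as the single term, a trend in the prior variance, two-sided tests on 4 residual degrees of freedom, Benjamini-Hochberg over all tested genes). The code was tested on simulated data. Whole reads were recovered from the FPKM steps for 99.99% of 26556 genes, within 0.02 reads, and gave depth and the voom alternative. Libraries of a group differed beyond sampling noise (chi-square divided by its degrees of freedom, 8.03 to 29.3), so none was a copy. As alternatives the pseudocount, filter, scaling, variance model and sample weights were changed, a block or voom was used, and each library was left out.

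Replicate numbers are shared by both groups. Deviations of same-numbered libraries correlated at 0.181, 0.185 and 0.161, with a mean of 0.176. Other ways of matching control to PS libraries gave means from -0.166 to 0.033. The numbers were therefore treated as a possible pairing, which the labels do not state. The main fit did not use it, and the replicate block did. Named are all 10 members, the 3 tested genes of lowest p in each companion list with any called, the 2 of lowest p in each marker list, and the 5 genes of most similar profile. Some genes that these rules and lists name are not reported here. Marker genes and lists were chosen from general knowledge, with earlier results of these data known, as were the 10 members. Promoters are RefSeq's, on GRCm38.p6, a build other than that of the files, and were matched by symbol.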

Additional observations from a re-analysis of the deposited data

How the results depend on the processing

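The count of 0 called astrocyte genes held in all alternatives run, including the replicate block, sample weights, limma-voom on recovered reads, and the rule that joins a 1.5-fold change to an unadjusted p under 0.05. Of 160 refits of single genes 150 kept their direction. The sign turned for Aqp4 without control replicate 2 (-0.036) or PS replicate 1 (-0.009), for Slc1a2 with sample weights (-0.003) and without control replicate 3 (-0.060) or PS replicate 3 (-0.013), for S100b with sample weights (-0.056) and without control replicate 2 (-0.050), and for Aldoc without control replicate 1 (0.046), control replicate 3 (0.040) or PS replicate 2 (0.020). The cause was not tested. With each library left out in turn, these 4 genes ranged from -0.036 to 0.079 (Aqp4), -0.060 to 0.083 (Slc1a2), -0.050 to 0.225 (S100b) and -0.137 to 0.046 (Aldoc). Gfap, Vim, Slc1a3, Aldh1l1, Glul and Sox9 kept their sign in all 16 alternatives each, but not their size. With a library left out they ranged from 0.009 to 0.138 (Gfap, 0.005 with sample weights), 0.031 to 0.107 (Vim), 0.014 to 0.089 (Slc1a3), 0.111 to 0.235 (Aldh1l1), -0.182 to -0.074 (Glul) and 0.131 to 0.242 (Sox9). Over all genes there were 20 calls, all lower in PS. With no filter there was 1, higher in PS, so none of the 20 was called. There were 9 at a mean of at least 5 FPKM (all lower), 632 with sample weights (297 higher, 335 lower), 48 with the replicate block (3 higher, 45 lower), and 0 to 66 when a library was left out, the 66 without control replicate 3 (17 higher, 49 lower). Companion genes called went from 1 (Lcn2) to 0 with no filter, 12 with sample weights (4 higher, 8 lower), and 0 to 2 when a library was left out. The numbering as a block changed no call among the astrocyte or companion genes, but called 4 red-cell genes. Of 72 list medians with a library left out, 13 moved by more than the spread between control libraries and, leaving aside the dystroglycan list at 0, 4 turned to a negative sign: the other genes of normal function (-0.031) and the glycogen, aldolase and lactate genes (-0.046) without control replicate 2, and the filament partners without control replicate 3 (-0.015) or PS replicate 1 (-0.020). The alternative order by transcript length was chosen after seeing the data and left Gfap at rank 6. Counting error was smaller than the spread between libraries for all 10 genes.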

Other observations

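Marker lists of the other cell types that whole brain holds held 68 tested genes, of which limma called 0 over all 12229 genes and 15 had an unadjusted p under 0.05, against 5.94% of all genes. All 8 mature oligodendrocyte markers had positive log2 fold changes (median 0.22), with the myelin enzyme gene Cnp at 136.7 ± 26.4 FPKM in controls and 167.7 ± 9.71 in PS (SD, n = 3, adjusted p = 0.801) and Mag, a myelin adhesion protein, at 62.5 ± 16.02 and 75.9 ± 0.950. Of 6 precursor markers 5 were positive and 4 did not overlap between groups (median 0.23), where 11.3% of all genes tested did not overlap, 4.93% with PS higher. Gpr17, a receptor of committed precursors, was at 7.36 ± 1.17 and 9.45 ± 0.427 (adjusted p = 0.565), and Cspg4, the NG2 proteoglycan, at 1.61 ± 0.276 and 2.16 ± 0.0890. Microglia markers were split, 3 positive and 4 negative. The fractalkine receptor gene Cx3cr1 was at 8.48 ± 0.849 and 11.3 ± 0.512 without overlap (log2 fold change 0.38, adjusted p = 0.22), while Aif1, which encodes IBA1, was at 3.01 ± 0.148 and 2.40 ± 0.357, also without overlap (log2 fold change -0.24, adjusted p = 0.751).

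Of 7 endothelial markers 6 were negative (median -0.08) and 2 did not overlap between groups, against 11.3% of all genes in either direction. Ly6c1 was at 23.2 ± 1.33 and 19.6 ± 1.29 FPKM without overlap (adjusted p = 0.565), and the VEGF receptor gene Flt1 at 5.95 ± 1.14 and 4.79 ± 0.0565. All 5 red-cell genes were negative without overlap (median -1.15), against the same 11.3% of all genes in either direction, among them Hbb-bt (log2 fold change -1.52, adjusted p = 0.0626) and Hba-a1 (-1.15, adjusted p = 0.0685), whose near-identical copies make the split of reads uncertain. Blocked on replicate number, 4 of the 5 were called, Hbb-bt (adjusted p = 0.0155), Hba-a1 (0.026), Hba-a2 (0.0264) and Alas2 (0.0253), and limma-voom called Hbb-bt alone (adjusted p = 0.0409). Without control replicate 3, 5 marker genes were called, those 4 and Mag (log2 fold change 0.50, adjusted p = 0.0495). Without PS replicate 3, Hbb-bs, Hbb-bt and Hba-a1 were called, and sample weights gave 17 calls. Neuron markers had a median of 0.01 (Stmn2 0.08, Rbfox3 0.01), telencephalic markers -0.03 (Neurod2 -0.07), cerebellar markers 0.12 (Cbln1 0.38, Gdf10 of Bergmann glia 0.34), ependymal markers 0.16 on 4 tested genes (Foxj1 0.22, Ccdc153 0.24), choroid plexus markers 0.21 (Folr1 0.24, Kl 0.21) and meningeal fibroblast markers 0.16 (Igf2 0.15, Dcn 0.18), all as log2 fold changes of PS over control with adjusted p of at least 0.717.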
